A study of Homo sapiens with 9 samples.

Results

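The proteins of the BCL2 family that carry several homology domains decide together whether the outer mitochondrial membrane stays closed. Here 8 of their genes were followed in A375 cells, 3 of them pore-forming effectors (BAX, BAK1 and BOK) and 5 of them survival genes (BCL2, BCL2L1, BCL2L2, MCL1 and BCL2A1). They were taken by gene symbol from the table of 26475 symbols by name and class, with no cutoff on a measured value, and all 8 were among the 16417 genes with enough counts to be tested. A375 is a human melanoma line that carries mutant BRAF. TP-472 inhibits BRD7 and BRD9, proteins that read acetylated chromatin through a bromodomain. The 9 mRNA libraries came from cells of this 1 line kept for 24 h in DMSO, the vehicle of the control group, in 5 µM TP-472 or in 10 µM TP-472, with 3 libraries per group. The libraries are described as biological replicates, but no source used here says that they came from separate cultures, so the p-values measure the spread between these libraries. The comparisons ask whether the balance of effector and survival transcripts differed between treated and control cells.

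When the pore-forming effectors BAX and BAK (the product of BAK1) are activated, they assemble in the outer mitochondrial membrane and let cytochrome c escape, after which caspases are switched on. The survival proteins BCL2, BCL-XL (from BCL2L1), BCL-W (from BCL2L2), MCL1 and BFL-1 (from BCL2A1) hold the effectors and their activators in check, and the BH3-only proteins release this brake. Melanoma cells commonly lean on MCL1 and BCL-XL. Much of the control lies in protein binding and protein turnover, which mRNA levels do not show.

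TP-472 treatment raised both classical effectors. At 10 µM 1 survival gene was called lower, a call that depended on single libraries. BAX was upregulated 2.17-fold at 5 µM and 2.56-fold at 10 µM, BAK1 was upregulated 1.71-fold at 10 µM, and BCL2 was downregulated to 0.637 of its DMSO level at 10 µM. Calls required a 1.5-fold difference together with an adjusted p (Benjamini-Hochberg, over all genes tested) below 0.05 in edgeR's quasi-likelihood test. At 5 µM, 1 of the 8 genes was called higher and 0 lower, where 2.14% of all genes tested were called higher and 2.72% lower. At an unadjusted p under 0.05, 2 genes were higher and 1 was lower at this dose, and both DESeq2 and limma-voom called 1 higher and 0 lower. No share over all genes is given at an unadjusted p, here or below, so such counts have no background beside them. At 10 µM, 2 were called higher and 1 lower, against 8.57% and 10.5% of all genes, so the lower count is near the background share. The median log2 fold change over the 3 effectors was that of BAK1, 0.47 at 5 µM and 0.78 at 10 µM (0.60 without 10 µM replicate 1). BOK went the other way, at -0.33 and -0.34. For the 5 survival genes the median was -0.02 and 0.14, and over all genes tested it was 0.01 at both doses.

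The libraries held 42483091 to 51298130 expected counts, and genes of ribosomal RNA took 8.2% to 19.9% of them. Replicate 1 at 10 µM stood apart in a trend on the length and GC content of each gene's longest transcript. This trend took 23.7% of the variance of its log2 deviations across genes, against 1.4% to 5% in the other 8 libraries. Replicate 1 at 10 µM also held the highest BAX, BAK1, BCL2L1 and BCL2A1 levels and the lowest BCL2L2 and MCL1 levels of all 9 libraries, so the values of the 8 genes at 10 µM are given with and without it. Of 9 melanocyte and melanoma markers, 6 had a mean of at least 1 CPM (counts scaled to the TMM-adjusted library size) in each group, among them SOX10 at 416.5 CPM in DMSO. TYR was at 0 in every library, DCT reached at most 1 count and MLANA at most 0.346 CPM. The summed level of these markers ran from 1155 to 1172 CPM in DMSO, from 881.7 to 918.2 CPM at 5 µM and from 621.6 to 708 CPM at 10 µM, most of the fall coming from CSPG4. The 11 markers of blood, endothelial and epithelial cells summed to 9.37 to 15.6 CPM. Fewer cells of a kind and less RNA per cell cannot be told apart in such bulk libraries.

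The promoter of BAX, which had the largest fold change of the 8 genes, is shown because it carries a short motif that few promoters hold. RefSeq entries on GRCh38.p14 matched 6 of the 8 genes (not BCL2L2 and MCL1), and the 250 bases before the start site of every entry were searched on both strands for the E-box CACGTG, the GC box GGGCGG, the CCAAT box and the TATA motif TATAAA. BAX held 4 E-boxes, beginning at -138, -93, -45 and -14 from the start, and 6.34% of 35116 promoters held at least 1. BAK1 held none. The stretch printed here runs from the far end of the window to where GENCODE release 29 begins the gene, with E-boxes in capitals, so the last pair of BAX E-boxes is not printed.
BAX, plus strand, chr19:48954625-48954814: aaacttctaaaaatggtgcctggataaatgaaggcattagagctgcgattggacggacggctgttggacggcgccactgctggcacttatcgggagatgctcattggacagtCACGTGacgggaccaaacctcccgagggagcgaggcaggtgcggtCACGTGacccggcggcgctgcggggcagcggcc
The E-box was also not found in the windows of BOK, BCL2, BCL2L1 and BCL2A1, which says only that its letters are absent there. The GC box occurred in 42.64% of all promoters, the CCAAT box in 32.01% and the TATA motif in 10.72%. The GC box and the CCAAT box each lay in the windows of BAX, BAK1 and BOK. The TATA motif lay in the window of BCL2A1 and in the BCL2L1 window with its start site at 31723963. The other BCL2L1 window, with its start site at 31722868, did not hold it. A match is a stretch of letters, and binding of a factor was not measured.

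BAX (chromosome 19, 48954815 to 48961798 of GRCh38) encodes the effector that moves from the cytosol to mitochondria when activated. Its levels in the DMSO libraries were 110.7, 102.0 and 102.4 CPM. At 5 µM they were 240.2, 226.3 and 218.1 CPM, and at 10 µM they were 345.3, 228.7 and 231.1 CPM. Each treated library lay above each DMSO library, and replicates 2 and 3 at 10 µM fell within the range of the 5 µM libraries. In edgeR's test the log2 fold change was 1.12 (SE 0.15, adjusted p = 0.00128) at 5 µM and 1.35 (SE 0.15, adjusted p = 9.63e-05) at 10 µM. Between the doses it was 0.23, with a 95% confidence interval from -0.09 to 0.55 and an edgeR adjusted p of 0.347. Without replicate 1 at 10 µM the change from DMSO was 1.13 (SE 0.05, edgeR adjusted p = 2.89e-11) while 10 µM differed from 5 µM by 0.01.

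BAK1 (chromosome 6, 33572547 to 33580293) encodes the effector that resides on mitochondria and is held there by MCL1 and BCL-XL. It was measured at 22.5, 22.1 and 21.4 CPM in DMSO, at 32.3, 29.2 and 29.7 CPM at 5 µM and at 46.3, 35.6 and 31.1 CPM at 10 µM. All 6 treated libraries were above the DMSO range. The log2 fold change was 0.78 (SE 0.13, edgeR adjusted p = 0.00157) at 10 µM, and 0.60 (adjusted p = 1.12e-05) without replicate 1, close to the 1.5-fold limit. At 5 µM it was 0.47 (SE 0.13, edgeR adjusted p = 0.052), below the limit in fold and just past it in p.

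BOK (chromosome 2, 241551424 to 241574138), a relative of both effectors that can form pores on its own and is kept low by protein degradation, did not follow them. Its DMSO levels were 25.7, 22.5 and 24.3 CPM, those at 5 µM were 18.4, 20.2 and 19.0 CPM, and those at 10 µM were 22.9, 19.0 and 15.6 CPM. The 5 µM libraries all lay below DMSO, while replicate 1 at 10 µM was inside the DMSO range. The log2 fold change was -0.33 at 5 µM (SE 0.13, edgeR adjusted p = 0.149) and -0.34 at 10 µM (adjusted p = 0.0731), so BOK was not called at either dose. Without replicate 1 at 10 µM the second value was -0.49 (edgeR adjusted p = 6.13e-04), still under 1.5-fold.

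**Figure D1:**
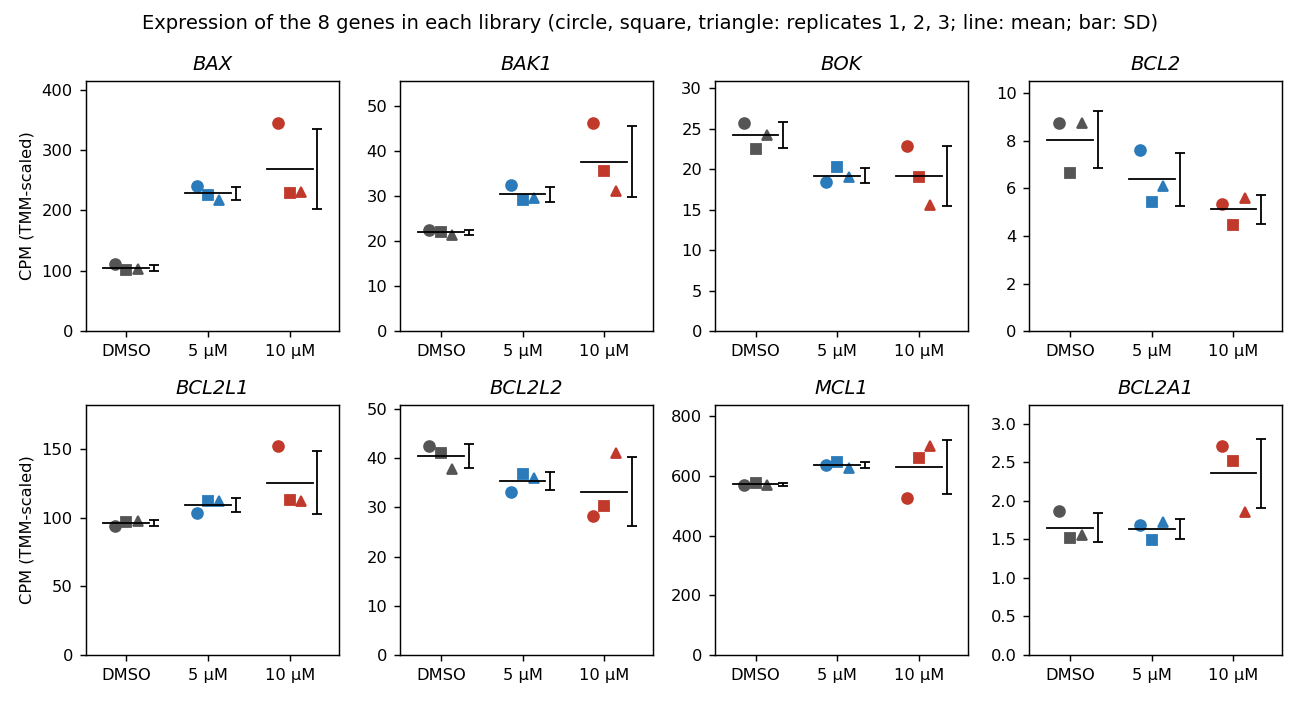
Levels of the 8 genes in TMM-scaled CPM (y axis, from 0) by group (x axis), 1 point per library with the replicate number as the symbol, a line at the mean and a bar for the SD (n = 3). BAX and BAK1 in all 6 treated libraries lie above the DMSO libraries, and BCL2 in the 3 libraries at 10 µM lies below them.

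Among the survival genes, BCL2 was the only one called. BCL2 (chromosome 18, 63123346 to 63320128) is the founding survival gene of the family. Its levels were 8.73, 6.65 and 8.75 CPM in DMSO, 7.60, 5.44 and 6.08 CPM at 5 µM, and 5.33, 4.44 and 5.60 CPM at 10 µM. The 10 µM libraries were all below DMSO, and the 5 µM libraries overlapped it. The log2 fold change was -0.34 at 5 µM (SE 0.18, edgeR adjusted p = 0.287) and -0.65 at 10 µM (SE 0.18, edgeR adjusted p = 0.0182). This call rested on 231 to 434 counts per library and depended on single libraries. The value was -0.59 with an edgeR adjusted p of 0.0737 without DMSO replicate 1, -0.59 with 0.0739 without DMSO replicate 3 and -0.56 with 0.0526 without 10 µM replicate 2. With the trend on length and GC content removed it was -0.41 (edgeR adjusted p = 0.152), and without replicate 1 at 10 µM it was -0.68 (edgeR adjusted p = 0.00593).

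BCL2L1 (chromosome 20, 31664452 to 31723989), the source of BCL-XL, lay at 94.1, 97.1 and 97.4 CPM in DMSO, at 103.3, 112.0 and 112.0 CPM at 5 µM and at 152.1, 112.7 and 112.1 CPM at 10 µM. Every treated library was above DMSO, by a small margin apart from replicate 1 at 10 µM. The log2 fold change of 0.18 at 5 µM had an edgeR adjusted p of 0.388. At 10 µM it was 0.38 (SE 0.11, edgeR adjusted p = 0.0262), a 1.31-fold difference that missed the fold limit, and it was 0.22 without replicate 1. The antisense gene ABALON covers 42.8% of the exon bases of BCL2L1 on the other strand. No source used here states whether strand entered the counting, so reads of the 2 genes may not be separated. ABALON held 92.5 to 348.3 counts per library, against 4121 to 7363 for BCL2L1.

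MCL1 (chromosome 1, 150574551 to 150579738) encodes a short-lived survival protein and had the largest counts of the 8 genes. Its levels were 569.6, 577.2 and 569.6 CPM in DMSO, 635.6, 645.6 and 626.6 CPM at 5 µM, and 526.5, 661.2 and 698.9 CPM at 10 µM. The 5 µM libraries all exceeded DMSO by a small margin, whereas at 10 µM replicate 1 was the lowest of all 9 libraries and the other two were the highest. The log2 fold change was 0.15 at 5 µM (SE 0.10, edgeR adjusted p = 0.387) and 0.14 at 10 µM (edgeR adjusted p = 0.308). Without replicate 1 at 10 µM it was 0.25 (edgeR adjusted p = 9.31e-06), which remained under 1.5-fold.

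BCL2L2 (chromosome 14, 23298790 to 23311759), the source of BCL-W, was measured at 42.4, 41.1 and 37.8 CPM in DMSO, 33.2, 36.8 and 36.0 CPM at 5 µM and 28.2, 30.2 and 41.2 CPM at 10 µM. The libraries at 5 µM were below DMSO and those at 10 µM overlapped it. The log2 fold changes were -0.20 and -0.29, with edgeR adjusted p of 0.431 and 0.127. Single libraries moved the value at 10 µM, to -0.18 (edgeR adjusted p = 0.151) without replicate 1 and to -0.47 (edgeR adjusted p = 0.00502, under 1.5-fold) without replicate 3. The read-through gene BCL2L2-PABPN1 shares 16.3% of its exon bases and lay at 94.5, 87.8 and 95.7 CPM on average in the 3 groups, so the split of counts between both is an estimate.

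BCL2A1 (chromosome 15, 79960889 to 79971446), the source of BFL-1 and a gene that MITF is known to drive in melanoma, was the least counted of the 8 genes, with 66 to 131 counts per library. Its levels were 1.87, 1.52 and 1.56 CPM in DMSO, 1.69, 1.49 and 1.72 CPM at 5 µM and 2.71, 2.52 and 1.85 CPM at 10 µM. At 10 µM 2 libraries were above DMSO and 1 was inside its range. The log2 fold change was -0.02 at 5 µM (SE 0.24, edgeR adjusted p = 0.981) and 0.51 at 10 µM (SE 0.24, edgeR adjusted p = 0.13), with a 95% confidence interval from -0.03 to 1.05, so a rise above 1.5-fold at 10 µM was neither shown nor excluded. It was 0.40 (edgeR adjusted p = 0.274) without replicate 1 at 10 µM, the library with the highest level, and 0.27 (edgeR adjusted p = 0.404) with the trend on length and GC content removed.

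**Figure D2:**
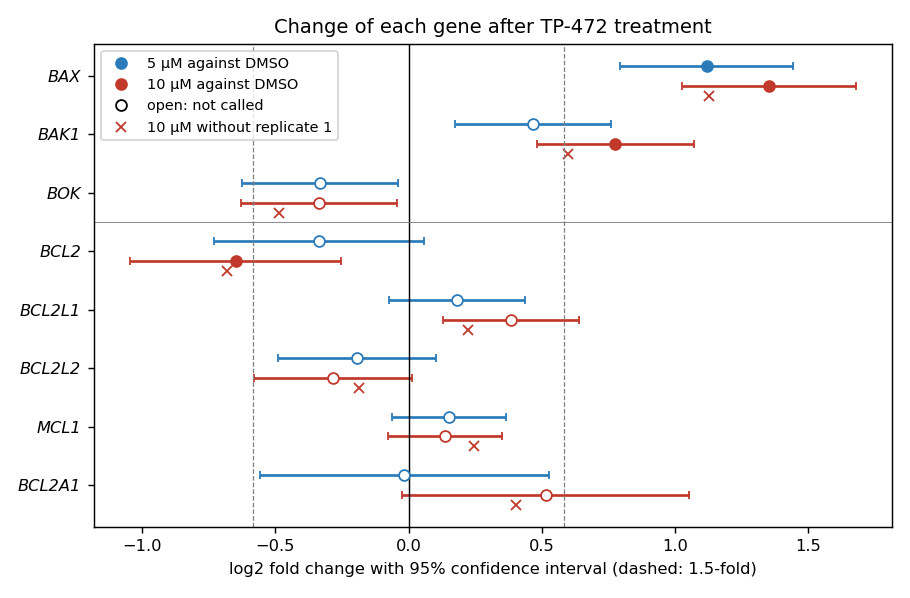
Log2 fold change of each gene against DMSO (x axis) with its 95% confidence interval from edgeR, for 5 µM (blue) and 10 µM (red), filled where called, with crosses for 10 µM without its replicate 1. BAX and BAK1 lie to the right at both doses, BOK and BCL2 to the left, and dashed lines mark 1.5-fold.

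Counting libraries rather than testing them, 4 genes at 5 µM were higher in all 3 treated libraries than in any DMSO library (BAX, BAK1, BCL2L1 and MCL1) and 2 were lower (BOK and BCL2L2). The same was true of 23.7% and 25.0% of all genes tested, so the lower count equals the background share. At 10 µM the counts were 3 higher (BAX, BAK1 and BCL2L1) and 1 lower (BCL2), against 23.4% and 26.0% of all genes. Between 10 µM and 5 µM edgeR called 0 of the 8 genes, where 1.42% of all genes were higher and 2.59% lower. DESeq2 and limma-voom also called 0, and at an unadjusted p under 0.05 1 gene, BAK1, was higher in edgeR. The SEs of the fit depended on the spread at 10 µM. Without its replicate 1, 5 of the 8 genes had an edgeR adjusted p under 0.05 at 5 µM (BAX, BAK1, BCL2L1 and MCL1 higher, BOK lower), where the same fit and threshold gave 16.5% of all genes higher and 17.6% lower. At 10 µM 4 were higher and 2 lower, against 23.0% and 25.8% of all genes. The genes that also passed 1.5-fold were 1 and 3 in number, as before.

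Levels of different genes were compared as CPM per kilobase of exons. In DMSO the order was MCL1 (140.1 ± 1.08, SD, n = 3), BAX (74.4 ± 3.45), BCL2L1 (33.7 ± 0.65), BCL2L2 (11.2 ± 0.657), BAK1 (9.94 ± 0.251), BOK (9.10 ± 0.6), BCL2A1 (1.52 ± 0.176) and BCL2 (0.685 ± 0.103). Only BAK1 and BOK overlapped as neighbours in this order. At 5 µM BAX (161.6 ± 7.9) reached the level of MCL1 (155.7 ± 2.33), their libraries overlapping, and BAK1 (13.7 ± 0.773) stood above BCL2L2 (9.80 ± 0.516) and BOK (7.23 ± 0.353). At 10 µM BAX (190.1 ± 47.2) and MCL1 (153.9 ± 22.2) again overlapped, as did BCL2L2 (9.21 ± 1.94) and BOK (7.20 ± 1.38). BAX made up 79.6%, 88.5% and 88.6% of the summed effector level in the 3 groups, and MCL1 74.8%, 75.7% and 73.2% of the summed survival level. A gene's length here is the union of its basic GENCODE exons, which for BCL2 is 11741 bases, much of it in long transcripts that may not be used in these cells.

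**Figure D3:**
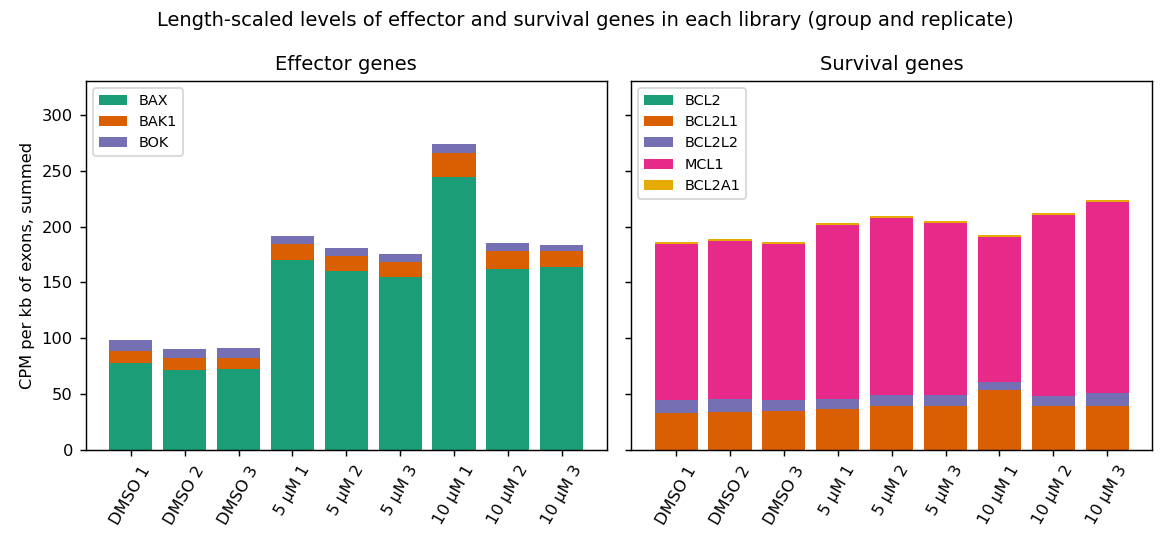
Stacked CPM per kilobase of exons (y axis, from 0) of the effector genes (left) and survival genes (right) in each library (x axis, group and replicate). The effector stack is mostly BAX and the survival stack mostly MCL1, and the effector stack is highest in 10 µM replicate 1.

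The summed effector level was 93.4 ± 4.15 CPM per kilobase in DMSO, 182.6 ± 8.41 at 5 µM and 214.3 ± 51.8 at 10 µM (SD, n = 3). For the survival genes the sums were 187.1 ± 1.33, 205.7 ± 3.18 and 209.7 ± 15.7. The ratio of the sums was 0.526, 0.481 and 0.491 in the DMSO libraries, 0.943, 0.865 and 0.855 at 5 µM, and 1.42, 0.872 and 0.820 at 10 µM. Only replicate 1 at 10 µM had more effector than survival transcript on this scale, and the other two libraries at this dose lay at or near the 5 µM range. No test was made of this sum, which is carried by BAX and MCL1.

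Ratios of the 3 effectors to the 5 survival genes were then formed within each library, as log2 of the quotient of counts with 0.5 added to each. Library size cancels in such a ratio, but a trend on length and GC content does not. Of these 15 ratios, 10 were higher than DMSO in every 5 µM library and 3 were lower, and at 10 µM 9 were higher and 2 lower. The ratios share their numerators and denominators, so they are not separate results. No share over ratios of other gene pairs was computed to set beside these counts. For each ratio without overlap the exact two-sided permutation test gave p = 0.1, the smallest that 3 libraries against 3 allow, so none could pass 0.05.

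All 5 ratios with BAX on top were higher at both doses. Relative to the DMSO mean, BAX to BCL2 was 2.40, 3.16 and 2.73 in the 5 µM libraries and 4.92, 3.91 and 3.13 in the 10 µM libraries, while the DMSO libraries were at 0.963, 1.17 and 0.890. This was the ratio that moved furthest on average, 2.75-fold (log2 1.46, SE 0.16) at 5 µM and 3.92-fold (log2 1.97, SE 0.22) at 10 µM, or 3.50-fold without replicate 1. It combines a numerator that rose with a denominator that fell at 10 µM. BAX and BCL2 each changed less at 10 µM with the trend on length and GC content removed. Their log2 fold changes were then 1.23 and -0.41, against 1.35 and -0.65 in the main fit. At 5 µM they hardly differed, at 1.13 and -0.32 against 1.12 and -0.34. BAX to MCL1 was 2.06, 1.91 and 1.90 times the DMSO mean at 5 µM and 3.58, 1.89 and 1.80 times at 10 µM. The mean of 2.30-fold at 10 µM came down to 1.84-fold without replicate 1, against 1.96-fold at 5 µM. BAX to BCL2L1 hardly differed between the doses, at 1.92-fold and 1.94-fold (1.875-fold without replicate 1). BCL2L1 was also highest in the library with most BAX. BAX to BCL2L2 was 2.49-fold and 3.10-fold (2.51-fold without replicate 1), and BAX to BCL2A1 was 2.19-fold and 1.78-fold (1.67-fold without replicate 1).

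BAK1 gained less over the survival genes. BAK1 to BCL2 was 1.54, 1.94 and 1.77 times the DMSO mean at 5 µM and 3.15, 2.90 and 2.02 times at 10 µM, and the 10 µM libraries did not overlap the 5 µM libraries. The averages of this ratio were 1.75-fold and 2.64-fold (2.42-fold without replicate 1). BAK1 to MCL1 was 1.24-fold at 5 µM and 1.55-fold at 10 µM, the latter 1.27-fold without replicate 1. BAK1 to BCL2L2 was 1.58-fold and 2.08-fold (1.73-fold without replicate 1), and BAK1 to BCL2L1 was 1.22-fold and 1.31-fold. The ratio of BAK1 to BCL2A1 was 1.39-fold at 5 µM and overlapped DMSO at 10 µM (log2 difference 0.26, exact permutation p = 0.2).

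Ratios with BOK on top lay lower or overlapped DMSO. BOK to BCL2L1 was 0.710, 0.720 and 0.676 of the DMSO mean at 5 µM and 0.599, 0.671 and 0.554 at 10 µM, below DMSO in all 6 libraries. BOK to BCL2A1 averaged 0.802 of DMSO at 5 µM and 0.554 at 10 µM. Both genes changed less at 10 µM with the trend on length and GC content removed. The log2 fold change was then -0.19 for BOK and 0.27 for BCL2A1, against -0.34 and 0.51 in the main fit. BOK to MCL1 at 5 µM (0.715 of DMSO) was below DMSO in all 3 libraries, but at 10 µM replicate 1 overlapped DMSO and the mean was 0.718, or 0.600 without that library. BOK to BCL2 and BOK to BCL2L2 overlapped DMSO at both doses.

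**Figure D4:**
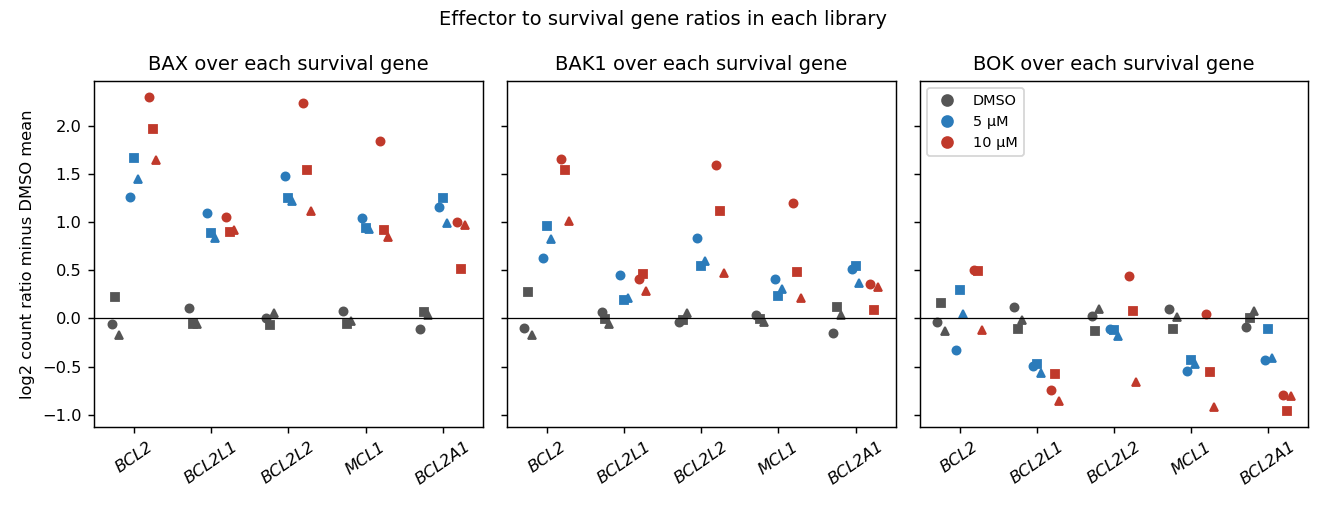
Log2 ratio of each effector to each survival gene (x axis) in each library, minus the mean of the 3 DMSO libraries (y axis); symbols give replicates 1 to 3 as circle, square and triangle. Ratios with BAX lie above 0 in all 6 treated libraries, ratios with BAK1 lie above 0 by less, and those of BOK to BCL2L1 and BCL2A1 lie below 0.

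The surrounding pathway was read from 6 lists with 48 genes. Over all genes tested, edgeR called 2.14% higher and 2.72% lower at 5 µM, and 8.57% and 10.5% at 10 µM. These shares stand beside the edgeR counts of each list. Of the 8 BH3-only genes, which trigger the effectors, 1 was called higher at 5 µM and 0 lower, and at 10 µM 2 were higher and 1 lower (median log2 fold change -0.03). At 5 µM DESeq2 and limma-voom each called 2, and at an unadjusted p under 0.05 edgeR had 1 higher and 1 lower. At 10 µM DESeq2 called 4 and limma-voom 3. BBC3, the gene of PUMA, rose from 13.0 ± 0.217 CPM to 26.5 ± 4.01 and 43.4 ± 6.33 CPM (SD, n = 3), a log2 fold change of 1.02 and 1.73 (edgeR adjusted p = 0.00123 and 1.07e-05), the latter 1.61 without 10 µM replicate 1. PMAIP1, the gene of NOXA, which binds MCL1, rose by 0.59 at 10 µM (edgeR adjusted p = 5.72e-04). BMF fell by 1.08 at 10 µM (edgeR adjusted p = 0.00979), from 7.71 ± 0.585 to 3.65 ± 1.44 CPM (-0.83 without 10 µM replicate 1), and was also called at 5 µM without 10 µM replicate 1.

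Downstream of the pore, CYCS, which encodes cytochrome c, was the only one of 10 genes called, with a log2 fold change of 0.73 at 10 µM (edgeR adjusted p = 2.95e-04). At 5 µM edgeR, DESeq2 and limma-voom called 0 of these 10, and 2 were higher at an unadjusted edgeR p under 0.05. Of 8 genes for turnover of the MCL1 protein, edgeR called 0 at 5 µM, where 1 was higher at an unadjusted p under 0.05, and DESeq2 and limma-voom called 0. At 10 µM FBXW7, a ubiquitin ligase subunit, rose by 0.99 (edgeR adjusted p = 1.04e-04) and USP13, a deubiquitinase, fell by 0.74 (edgeR adjusted p = 0.0146). The call of USP13 was lost without 10 µM replicate 1. None of 8 genes for mitochondrial partners was called by edgeR, DESeq2 or limma-voom at either dose, with 1 higher and 1 lower at an unadjusted edgeR p under 0.05 at 5 µM and 1 lower at 10 µM. The same held for the 3 of 5 divergent BCL2 relatives that could be tested, with 0 at an unadjusted p under 0.05.

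Of 9 transcription factors known to act on these genes, edgeR, DESeq2 and limma-voom called 0 at 5 µM, where 1 was higher and 3 were lower at an unadjusted edgeR p under 0.05. At 10 µM 1 was higher and 2 were lower in edgeR. JUN rose by 1.32 (edgeR adjusted p = 2.01e-06), from 37.0 ± 1.77 to 92.1 ± 5.79 CPM. STAT5A fell by 0.61 (edgeR adjusted p = 8.73e-04), and E2F1, which drives genes of DNA synthesis, fell by 0.79 (edgeR adjusted p = 0.0013; -0.96 without 10 µM replicate 1). MITF lay at 31.9 ± 1.79, 29.8 ± 2.67 and 29.1 ± 6.32 CPM in the 3 groups, with log2 fold changes of -0.10 and -0.14 (edgeR adjusted p = 0.754 and 0.512). Protein activity of these factors was not measured.

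Across the 9 libraries, which share 3 groups, the gene whose log2(CPM + 1) followed BAX most closely among 9827 genes of at least 10 CPM on average was RPS27L (Pearson r = 0.997, and 0.995 without 10 µM replicate 1). RPS27L rose from 101.0 to 274.0 and 350.9 CPM on average. For BAK1 the closest were SNAP47 (r = 0.991) and PHPT1 (r = 0.989), and for BAX the next after RPS27L was GDE1 (r = 0.995). MCL1 was followed by PDCD11 (r = 0.991) and SPRTN (r = 0.989), and BCL2L1 by HTRA2 (r = 0.994), itself on the list of genes acting after the pore opens, and UPF3A (r = 0.993). The closest genes were looser for BOK (MRGBP at 0.978 and ITGB3BP at 0.968), BCL2 (CEP41 at 0.958 and SCCPDH at 0.930), BCL2L2 (ZNF783 at 0.956 and PCGF5 at 0.927) and BCL2A1 (DAGLB at 0.952 and TIAL1 at 0.944). Without 10 µM replicate 1, r was lower for ZNF783 (0.931), PCGF5 (0.886), DAGLB (0.925), TIAL1 (0.893) and UPF3A (0.972). It hardly moved for MRGBP (0.976), ITGB3BP (0.966), CEP41 (0.954) and SCCPDH (0.933). Within the family, over all 9 libraries, BAX and BAK1 went together most closely (r = 0.953), and MCL1 and BOK moved in opposite directions (r = -0.873). These correlations describe libraries that share groups, and no test was made of them.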

How the data were processed

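mRNA from 9 A375 libraries was profiled. Expected counts by gene symbol, from RSEM and without scaling for depth, were deposited by the authors as a single table. The submitters' processing notes name Bowtie2 2.1.0, RSEM 1.2.15 and hg38. No source used here names the annotation, a filter or the use of strand. The protocol describes oligo-dT selection and the design text depletion of ribosomal RNA, and which was used could not be settled.

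Expected counts were rounded to whole numbers (10.6% to 13.8% of values per library had a fractional part) and fitted with edgeR 4.0.16 in R 4.3.3 over all 9 libraries, with TMM factors (0.957 to 1.029), filterByExpr, the quasi-likelihood F test and Benjamini-Hochberg adjustment over 16417 genes. Depth was 42483091 to 51298130 counts. Intervals are at 95% from the moderated degrees of freedom. CPM use TMM-scaled sizes. Lengths, positions and overlaps came from GENCODE release 29 on GRCh38, and promoter windows from RefSeq. DESeq2 1.42.0 and limma 3.58.1 (voom), other factors and filters, a replicate block, removal of a length and GC trend (splines of 4 degrees of freedom), each group pair alone, no fold limit and each library left out were alternatives. Leaving out ribosomal RNA genes and dividing the length and GC trend out of ratios were added after the data were seen. Named genes are the 8 members, the 3 of each list with the smallest p at 10 µM among those called there, and the 2 most similar genes per member. The members and the lists were chosen with earlier results of these data known. The result for 1 listed gene is not reported here. Scripts were tested on simulated data. Tables were made with Python 3.11.15, pandas 2.3.3, numpy 2.4.6 and scipy 1.17.1, and plots with matplotlib 3.10.9.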

Additional observations from a re-analysis of the deposited data

Results flagged for a closer look

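Of the 48 genes on the 6 lists, 2 were called between the doses. Over all genes tested, 1.42% were called higher between the doses and 2.59% lower. The marker CSPG4, which is not on these lists, was also called there, with a log2 fold change of -0.96 (edgeR adjusted p = 0.0023). BBC3 was higher at 10 µM than at 5 µM by 0.71 on the log2 scale (edgeR adjusted p = 0.00977). JUN was higher at 10 µM than at 5 µM by 1.06 on the log2 scale (edgeR adjusted p = 7.63e-05). None of the 8 family members met this condition. Groups of 3 libraries are too small for the check of single outlying libraries.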

How the results depend on the processing

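The counts of called genes, the mean of the 15 ratios and the summed ratio stayed within 1.5 times or 1 SD of their values under every alternative run. For the ratios this SD includes the library left out. With 3 libraries per group, leaving 1 out cannot move a group mean past it, so those runs could not fail. The summed ratio at 10 µM was 1.42 in replicate 1 but 0.872 and 0.820 in replicates 2 and 3. The count of called genes at 10 µM fell from 3 to 2 in some runs, just at the limit of 1.5 times. With no fold limit 4 genes passed at 10 µM, BCL2L1 being added, and no share over all genes is given for this. Of 456 values of single genes, 437 kept their direction and side of the threshold, 4 lost the call (all BCL2 at 10 µM, given above) and 15 changed sign, all of them small differences that no comparison called. BOK between the doses was 0.0062 with DESeq2-type factors, 0.028 with upper-quartile factors, 0.013 with at least 1 CPM in 3 libraries, 0.0061 in DESeq2, 0.042 with the length and GC trend removed, 0.0022 without ribosomal RNA genes, 0.0066 with only these groups and -0.15 to 0.12 with libraries left out in turn. MCL1 between the doses was 0.013 with upper-quartile factors, 0.047 with the trend removed and -0.098 to 0.095 with a library left out, the highest without 10 µM replicate 1 (edgeR adjusted p = 0.0404, under 1.5-fold). With libraries left out, BCL2L2 between the doses ran from -0.27 to 0.011 (without 10 µM replicate 1), and BCL2A1 at 5 µM from -0.072 to 0.082 (without DMSO replicate 1). The cause was not tested. With the length and GC trend divided out of the ratios, 6 of them moved by more than 1 SD, the one at 10 µM for BAK1 to BCL2A1 to 0.52 on the log2 scale. Libraries with the same number did not deviate together (correlations from -0.042 to 0.036), and the replicate block called the same number of members, 1 at 5 µM, 3 at 10 µM and 0 between the doses. BCL2A1 had the lowest counts of the 8 genes, 66 to 131 per library, and its changes the largest SEs.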
